A study of Mus musculus with 6 samples.

Results

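The genes described here encode SPARC, its near relatives and follistatin-like 1, a group of secreted proteins that sit in the extracellular matrix of muscle. They are the rows of the gene count table whose gene name is Sparc, Sparcl1, Smoc1, Smoc2, Spock1, Spock2, Spock3 or Fstl1. That makes 8 genes of 54532 in the table, and 6 of the 8 are among the 14973 genes kept by a filter on low counts. The group was selected on the measured difference in counts between the study's groups, MP and Ctrl. Its values in that comparison are therefore given as a description, without p-values, and support nothing further.

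All RNA came from gastrocnemius, the large calf muscle. The mice were C57BL/6J, 3 months old, and had drunk 0.2% doxycycline since they were 4 weeks old. The 3 control libraries (Ctrl) carried the genotype Mck cre, in which the promoter of muscle creatine kinase, a gene of muscle fibres, drives the recombinase. The other 3 libraries (MP) carried Mck cre and Tg Glut1-Hk2-Pfkfb3, a transgene for a glucose carrier, a hexokinase and a producer of the activator of phosphofructokinase. Both groups thus shared the driver, the strain and the drug. The labels do not say whether the libraries of a group came from separate animals, so every spread given is that between these libraries.

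SPARC-family proteins share a follistatin-like segment and a calcium-binding domain, and they regulate cells and matrix more than they build structure. SPARC binds collagens, and SPARCL1, or hevin, is its closest relative. SMOC1 and SMOC2 add thyroglobulin-like segments, and SMOC1 is known as an antagonist of bone morphogenetic protein (BMP) signalling. The SPOCK proteins, or testicans, are proteoglycans that are linked to the control of proteases. FSTL1 is a secreted glycoprotein with a follistatin-like segment that binds BMP4. Skeletal muscle holds fibres, vessels, fibroblast-like progenitors and nerve, and in whole-muscle RNA more cells of a type and more RNA per cell cannot be told apart.

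Smoc1 and Smoc2 are the members that differed most between the groups, and as close relatives they could share reads. Their longest common run of letters is therefore shown. It lies in exon 11 of 13 in each gene, within the coding sequence. The 67 bases printed for each gene hold this run and the letters beside it, and lie on the plus strand at chr12:81179479-81179545 for Smoc1 and at chr17:14399371-14399437 for Smoc2 (GRCm38, GENCODE M21). Capitals mark the run, 33 bases that are identical in both.
Smoc1: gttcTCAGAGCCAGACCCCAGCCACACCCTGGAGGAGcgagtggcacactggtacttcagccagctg
Smoc2: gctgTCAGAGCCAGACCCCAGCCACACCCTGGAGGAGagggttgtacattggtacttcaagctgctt
Beside this run the printed letters differ at scattered positions, with matching letters between them. No stretch of 50 bases in any transcript of Smoc1, Smoc2, Sparcl1 or Spock1 occurred, on either strand, in a transcript of another gene. Of such stretches 0.601% were shared for Sparc, 0.741% for Spock2, 0.201% for Spock3 and 5.35% for Fstl1. Among all pairs of members the next longest common run was 20 bases, between Smoc2 and Spock3.

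The libraries held 19546456 to 24665024 counts. Levels are given as CPM, the counts of a gene scaled to library size by the TMM method. No gene named in the transgene was higher in every library labelled MP than in the controls. Pfkfb3 went the other way, with 579 to 1585 CPM in the control libraries and 120.1 to 542 CPM in the libraries labelled MP. Slc2a1 and Hk2 overlapped between the groups. Slc2a1 had 12.0 to 23.3 CPM in the control libraries and 8.05 to 13.5 CPM in the libraries labelled MP. Hk2 had 156 to 187 CPM in the control libraries, 341 CPM in MP replicate 1, and 168 and 182 CPM in MP replicates 2 and 3. The log2 fold change of Hk2 was 0.44, and 0.06 without MP replicate 1. In edgeR's quasi-likelihood test the adjusted p-values of Pfkfb3, Slc2a1 and Hk2 were 0.196, 0.290 and 0.381. The groups are therefore called by their labels throughout. Control replicate 1 stood apart, with 477 CPM summed over 6 B cell genes against 6.90 to 56.5 CPM elsewhere, and 118 CPM over 7 T cell genes against at most 4.85 CPM. The fibre markers were abundant in all libraries, with 100100 to 148200 CPM summed over 8 genes.

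Smoc1 was the member with the largest difference. Its counts were 152, 81 and 68 in control replicates 1, 2 and 3 and 452, 808 and 874 in MP replicates 1, 2 and 3. As CPM these were 6.34, 3.83 and 3.13 against 18.7, 39.2 and 35.0. Every library labelled MP lay above every control library, and MP replicate 1 was the lowest of its group. The mean rose from 4.43 ± 1.69 to 30.9 ± 10.8 CPM (SD, n = 3 each), and the log2 fold change was 2.79 ± 0.36 (SE, 95% interval 1.96 to 3.63), or 6.94-fold. Without control replicate 1 it was 3.15. Smoc1 (ENSMUSG00000021136) spans chromosome 12, 81026808 to 81186414, on the plus strand.

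Smoc2, whose product is a second member of the SMOC pair, was the more abundant of the 2 genes in every library. It had 83.2, 68.3 and 101.5 CPM in control replicates 1, 2 and 3. In MP replicates 1, 2 and 3 it had 103, 277 and 270.0 CPM. MP replicates 2 and 3 were far above the controls, while MP replicate 1 lay just above control replicate 3. The mean went from 84.3 ± 16.6 to 217 ± 98.4 CPM, a log2 fold change of 1.36 ± 0.36 (interval 0.52 to 2.20). Without MP replicate 1 the log2 fold change was 1.71, and without control replicate 1 it was 1.35. Smoc2 (ENSMUSG00000023886) spans chromosome 17, 14279506 to 14404790, on the plus strand.

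An antisense gene, AC169675.1 (ENSMUSG00000117328), lies on the minus strand inside Smoc2, at chromosome 17, 14389113 to 14398942. None of its 607 exonic bases overlaps an exon of Smoc2. It had 8, 9 and 5 counts in control replicates 1, 2 and 3 and 13, 33 and 53 counts in MP replicates 1, 2 and 3, so its order of libraries within MP followed that of Smoc1 and Smoc2 in having replicate 1 lowest. Whether the counting used strand is not stated, and without strand reads of this gene and of unspliced Smoc2 RNA cannot be told apart. Its counts came to 0.227% to 0.786% of those of Smoc2, and adding them to Smoc2 gave a log2 fold change of 1.36 (an alternative chosen after the data were seen).

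**Figure D1:**
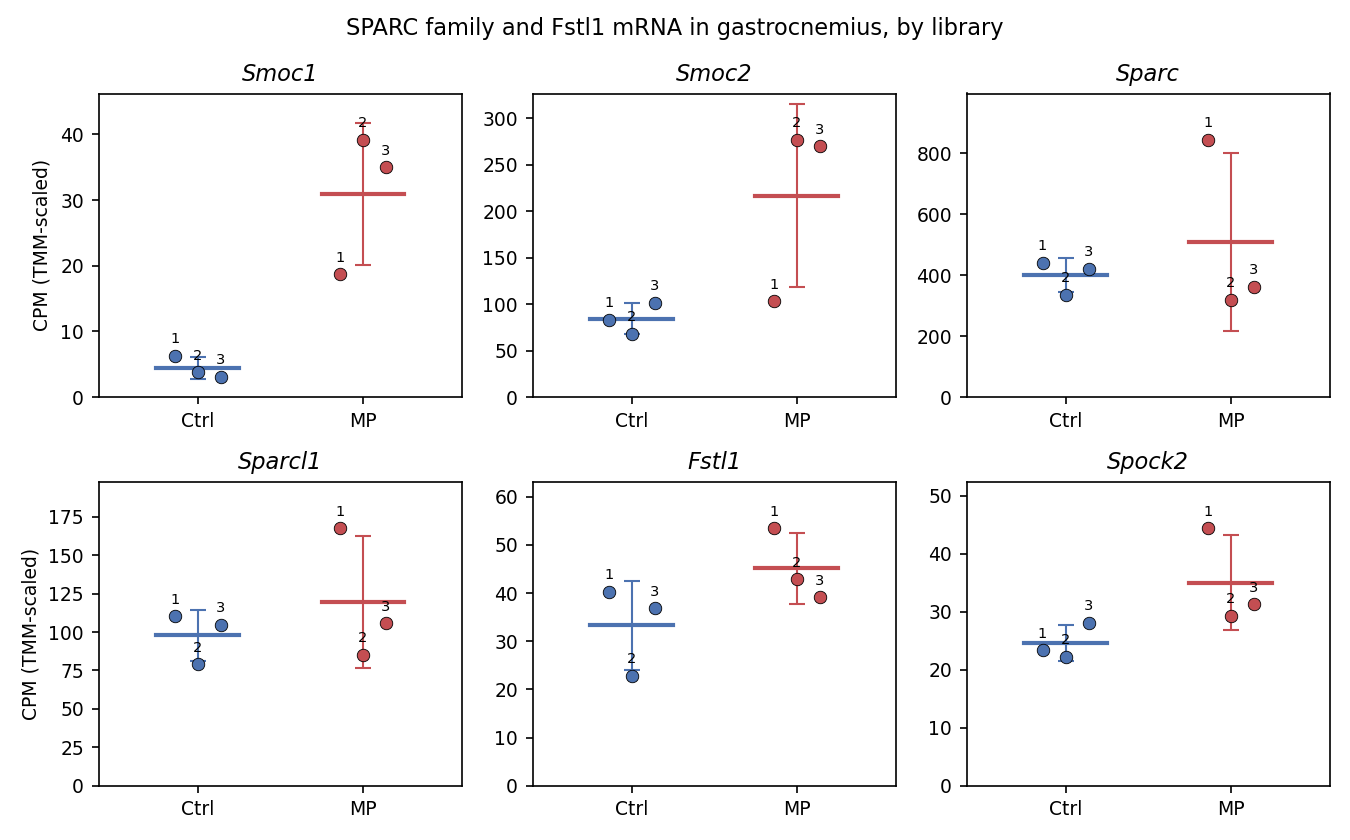
TMM-scaled CPM (y axes, each from 0) of the 6 members kept by the filter, in the control (blue) and MP (red) libraries. Numbers mark replicates, thick lines means and bars SDs over 3 libraries. Smoc1 does not overlap between the groups, and MP replicate 1 is the lowest MP library for Smoc1 and Smoc2 and the highest for the other 4 genes.

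Sparc, the founding member, was the most abundant of the 8 and did not separate the groups. Its CPM were 441, 336 and 422 in control replicates 1, 2 and 3 and 844, 320.0 and 362 in MP replicates 1, 2 and 3. MP replicate 1 lay far above every control library, and the other MP libraries lay within or below the control range. The log2 fold change was 0.35 ± 0.36 (interval -0.49 to 1.19) and turned to -0.21 without MP replicate 1. Sparc (ENSMUSG00000018593) spans chromosome 11, 55394500 to 55423183, on the minus strand.

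Sparcl1, or hevin, followed Sparc from library to library. It had 110.2, 79.1 and 104.7 CPM in control replicates 1, 2 and 3 and 167 (MP replicate 1), 85.1 (MP replicate 2) and 105.7 CPM (MP replicate 3). MP replicate 1 was the one MP library outside the control range. An antisense gene, Gm26703, overlaps Sparcl1 on the plus strand but shares none of its exonic bases. The log2 fold change was 0.29 ± 0.26 (interval -0.31 to 0.88), and -0.03 without MP replicate 1. The ratio of Sparc to Sparcl1 in FPKM, the deposited values per length, stayed between 2.66 and 3.91 in the 6 libraries. Sparcl1 (ENSMUSG00000029309) spans chromosome 5, 104079111 to 104113733, on the minus strand.

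Fstl1, the BMP4-binding glycoprotein, had 40.2, 22.9 and 36.9 CPM in control replicates 1, 2 and 3. In MP replicates 1, 2 and 3 it had 53.4, 42.8 and 39.1 CPM. Control replicate 2 was the lowest of the 6 libraries, and the groups overlapped between MP replicate 3 and control replicate 1. The log2 fold change was 0.44 ± 0.22 (interval -0.09 to 0.96), falling to 0.23 without control replicate 2. Fstl1 (ENSMUSG00000022816) spans chromosome 16, 37776873 to 37836514, on the plus strand.

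Spock2, or testican-2, was the one testican with more than trace counts. It had 23.4, 22.3 and 28.2 CPM in control replicates 1, 2 and 3 and 44.4, 29.4 and 31.3 CPM in MP replicates 1, 2 and 3. The groups did not overlap, but MP replicate 2 exceeded control replicate 3 by little. The log2 fold change was 0.51 ± 0.19 (interval 0.07 to 0.95), and 0.32 without MP replicate 1. Spock2 (ENSMUSG00000058297) spans chromosome 10, 60106219 to 60135198, on the plus strand.

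The other testicans were at or near the limit of detection and did not pass the filter. Spock3 (ENSMUSG00000054162, chromosome 8, 62951009 to 63357103) had 3, 7 and 11 counts in control replicates 1, 2 and 3 and 4, 0 and 5 counts in MP replicates 1, 2 and 3. Spock1 (ENSMUSG00000056222, chromosome 13, 57421195 to 57908332) had 0, 2 and 1 counts in the controls and 1, 0 and 0 in the MP libraries. A library with 0 counts allows up to 3 counts, or 0.120 to 0.145 CPM at these depths, so no fold is given for either gene.

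Counted over the group, Smoc1 alone of the 6 members tested was called at 0.05 by edgeR's adjusted p, and it was higher in MP. Of all genes tested 1.3% were called, 0.788% higher and 0.508% lower in MP. The 3 and 3 CPM values did not overlap, and were higher in MP, for Smoc1, Smoc2 and Spock2, where 13.8% of all genes tested did so and 13.6% were lower without overlap. All 6 log2 fold changes were positive, as were 46.6% of those over all genes tested. Since the group was chosen with this comparison known, nothing is read from these counts. The pass of Smoc1 was lost without control replicate 2 or 3, without MP replicate 2 or 3, and with the replicate number as a block.

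**Figure D2:**
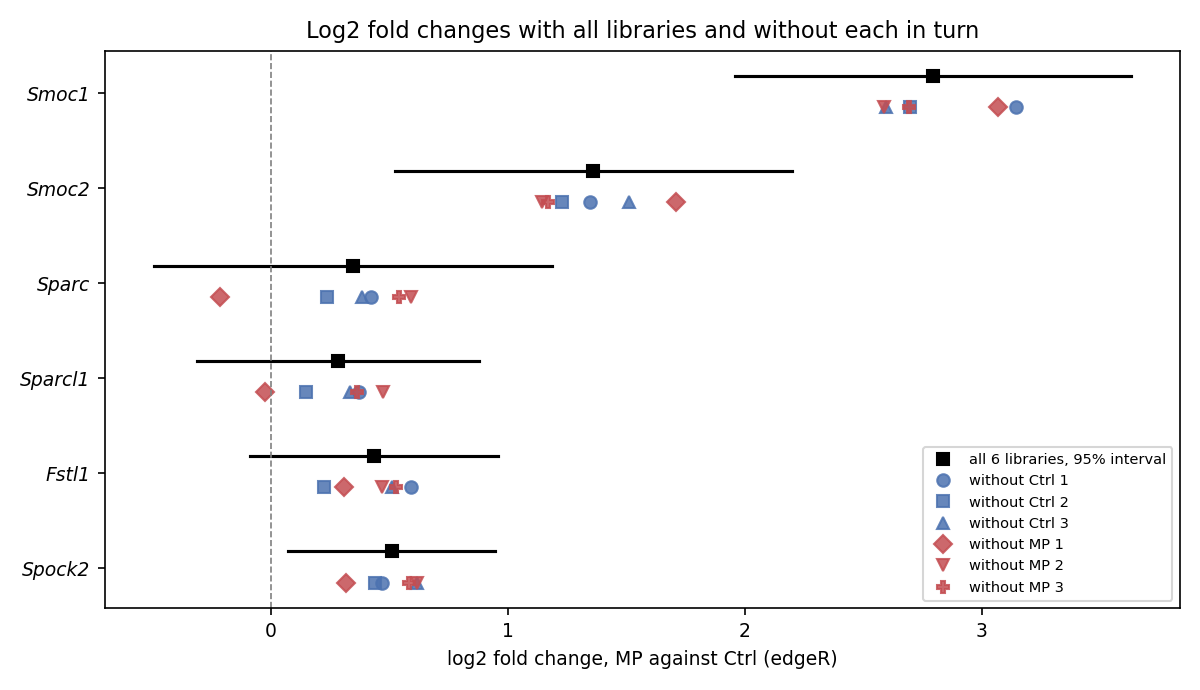
Log2 fold change of MP against Ctrl (x axis) for each member kept by the filter. Black squares and lines give the value with all 6 libraries and its 95% interval, and coloured marks the values without each library in turn. Smoc1 stayed between 2.59 and 3.15, whereas Sparc and Sparcl1 fell to -0.21 and -0.03 without MP replicate 1.

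Levels were compared between genes in FPKM, which divide by gene length. In the controls the order was Sparc (105 ± 14.5 FPKM), Sparcl1 (33.3 ± 5.59), Smoc2 (12.1 ± 2.41), Fstl1 (6.76 ± 1.86), Spock2 (4.43 ± 0.579) and Smoc1 (1.26 ± 0.475). Neighbours in this order did not overlap except Fstl1 and Spock2. In the MP libraries Sparc averaged 134 ± 75.4, Sparcl1 40.6 ± 14.3, Smoc2 31.2 ± 14.3, Fstl1 9.16 ± 1.43, Smoc1 8.85 ± 3.14 and Spock2 6.31 ± 1.43 FPKM. There Smoc2 overlapped Sparcl1, and Smoc1 overlapped both Fstl1 and Spock2. Fstl1 and Spock2 did not overlap, by a narrow margin, with a lowest Fstl1 value of 8.01 and a highest Spock2 value of 7.95 FPKM. Smoc2 exceeded Sparcl1 in MP replicates 2 and 3, with 39.8 and 39.1 FPKM against 29.0 and 36.2, but not in MP replicate 1.

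The make-up of the group by FPKM set MP replicates 2 and 3 apart from the other 4 libraries. Smoc1 and Smoc2 together took 7.64%, 8.07% and 8.85% of the summed FPKM of the 8 genes in control replicates 1, 2 and 3. They took 6.33% in MP replicate 1, 28.6% in MP replicate 2 and 25.2% in MP replicate 3. In FPKM the SMOC pair summed to 20.0 in MP replicate 1, above the 10.9 to 15.5 of the controls, although its share there was lower. Sparc took 63.6% to 65.6% in the controls, 69.9% in MP replicate 1 and 47.3% and 49.3% in MP replicates 2 and 3. MP replicate 1 instead had the highest sum over the 8 genes, 316 FPKM, against 135 to 195 FPKM in the other 5 libraries. Within the SMOC pair the ratio of Smoc2 to Smoc1 was 6.60, 8.97 and 16.3 in control replicates 1, 2 and 3 and 2.78, 3.55 and 3.88 in MP replicates 1, 2 and 3. By that ratio MP replicate 1 lay with its own group.

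**Figure D3:**
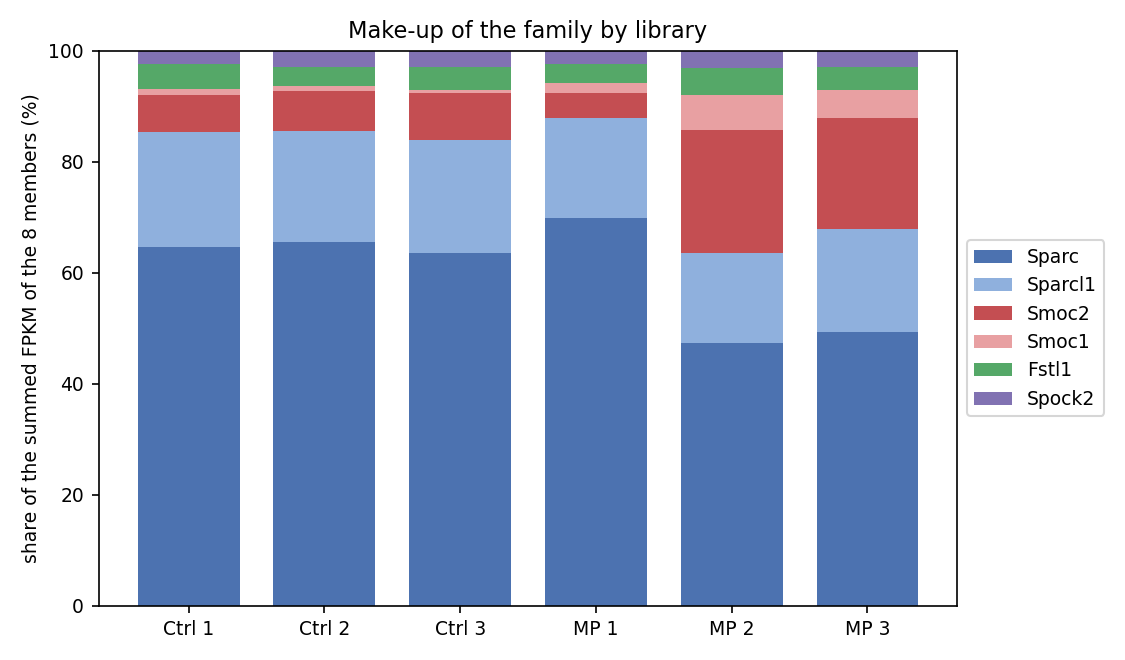
Share of the summed FPKM of the 8 members (y axis, %) taken by each gene in each library. Spock1 and Spock3 are too low to see. The SMOC pair (red tones) takes 25.2% and 28.6% in MP replicates 3 and 2 and at most 8.85% in the other 4 libraries.

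Summed CPM of markers of some other cell types moved with several members, though such sums weigh abundant genes most. The Schwann cell sum was highest in control replicate 2 (453 CPM), and the macrophage and red blood cell sums in control replicate 1 (273 and 83.7 CPM). The adipocyte sum was highest in MP replicate 1, at 1147 CPM, but the adipocyte median of centred log2 CPM was -0.97 there. Endothelial genes summed to 821 CPM in MP replicate 1 against 345 to 458 CPM in the other 5 libraries, pericyte and smooth muscle genes to 800 CPM against 512 to 688 CPM, and tendon genes to 611 CPM against 263 to 407 CPM. In MP replicate 1 Fmod and Thbs4 gave 304 and 256 CPM of the tendon sum, while Kera was highest in control replicate 1 and Scx in MP replicate 2. Abcc9 and Acta2 of the pericyte list were highest in control replicate 3, Abcc9 with 295 against 225 CPM in MP replicate 1. The endothelial, pericyte and tendon medians of centred log2 CPM peaked in MP replicate 1, at 0.88, 0.66 and 0.65. MP replicate 1 was also the library with the most Sparc, Sparcl1, Fstl1 and Spock2. The 10 fibro-adipogenic progenitor genes, markers of the fibroblast-like cells of muscle, summed to 2401 and 2395 CPM in MP replicates 2 and 3, the libraries with the most Smoc2. They summed to 1894 CPM in MP replicate 1 and to 1287 to 2036 CPM in the controls. Gsn and Dcn gave most of each progenitor sum, with 1475 and 579 CPM in MP replicate 2 and 1426 and 624.5 CPM in MP replicate 3. Pi16 and Clec3b of this list had log2 fold changes of -0.08 and -0.03, and the other 8 genes had positive values. Genes of the nuclei at the neuromuscular junction summed to 131 to 148 CPM in the MP libraries and 77.5 to 95.2 CPM in the controls. These genes did not move as one. Musk rose most in CPM, from a mean of 19.8 to 39.5. Chrne was lower in every MP library, with 7.49 to 8.97 CPM against 9.83 to 11.5 CPM in the controls. Colq had a log2 fold change of -0.55, and the other 6 genes of the list had positive values. The satellite cell genes, markers of the muscle stem cells, overlapped as a sum, with 141 to 166 CPM against 109 to 173 CPM, of which Sdc4 alone gave 48.6 to 125 CPM. Their median centred log2 CPM did separate the groups, at 0.30 to 0.49 in MP and -0.53 to -0.32 in the controls. Of these 8 genes 4 were higher in MP without overlap, as were 13.8% of all genes tested. Vcam1 and Sdc4 had log2 fold changes of -0.02 and -0.03, and Cdh15 had 0.09. Of the 8 genes 1 passed, where edgeR called 1.3% of all genes tested. It was Calcr, the calcitonin receptor gene (log2 fold change 2.10 ± 0.31, edgeR adjusted p = 0.0324, from 0.00395 to 0.182 over the alternatives). Its counts were low, with 9, 7 and 9 in control replicates 1, 2 and 3 and 34, 37 and 42 in MP replicates 1, 2 and 3. Its call was lost without any one of control replicates 2 and 3 and MP replicates 1, 2 and 3, and with the block. None of the genes in these lists was at 0 in all libraries, and their part in the values of the members was not tested.

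**Figure D4:**
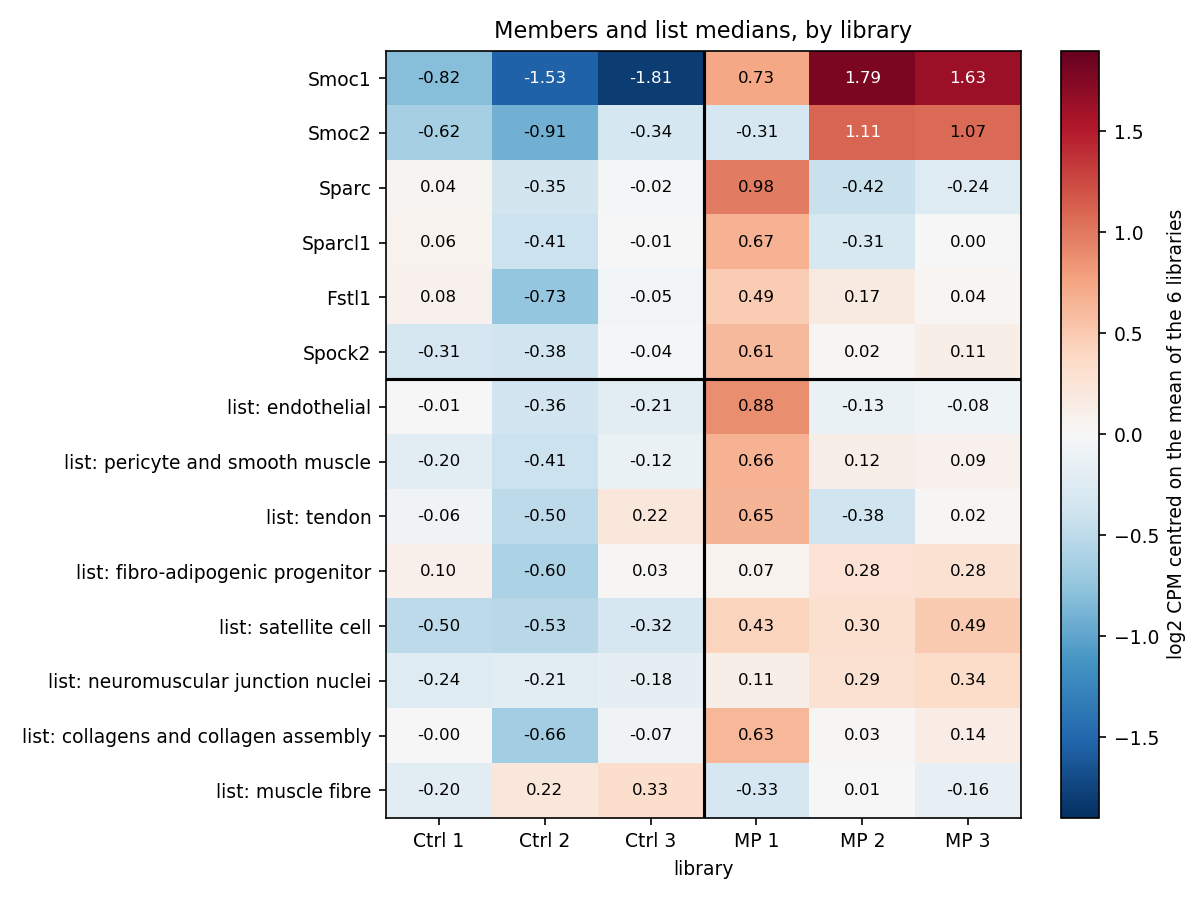
Log2 CPM centred on the mean of the 6 libraries (colour and printed value) for the members kept by the filter and, below the line, the median over the genes of each list. Sparc (0.98) and the endothelial list (0.88) peak in MP replicate 1, and Smoc1 (1.79 and 1.63) and Smoc2 (1.11 and 1.07) in MP replicates 2 and 3.

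Likeness between profiles was measured as the root mean square difference of these centred log2 CPM over the 6 libraries, where 0 means the same profile. Among members Sparc and Sparcl1 were nearest, at 0.170, and Sparc and Smoc1 farthest, at 1.52. Smoc1 and Smoc2 differed by 0.863. Smoc2 was the nearest member to Smoc1, but Smoc2 itself was nearer to Fstl1 (0.731) and Spock2 (0.758). The measure reflects the size of the changes of a gene as well as their order. Candidates were the 11006 other protein-coding genes that averaged 2 CPM or more. The nearest to Smoc1 were Aacs (0.321), Slc35g1 (0.350) and Ttc25 (0.451). Aacs, which activates acetoacetate for lipid synthesis, had 9.30, 4.02 and 4.38 CPM in control replicates 1, 2 and 3 and 14.9, 34.1 and 40.8 CPM in MP replicates 1, 2 and 3. Like Smoc1 it was lowest in MP replicate 1 within its group. Aacs was picked for its likeness to Smoc1 over these same libraries, so this adds nothing further. Nearest to Smoc2 were Rasd1 (0.265), Amd2 (0.292) and Armh4 (0.302).

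The nearest profiles of the remaining members were found in the same way. For Sparc they were Prag1 (0.0882), Cilp2 (0.109) and Robo4 (0.112), the last a receptor of endothelial cells. For Sparcl1 they were Chml (0.0727), Col1a2 (0.0749), a chain of type I collagen, and Ushbp1 (0.0756). For Fstl1 they were Polh (0.0512), Ltbp4 (0.0585), a binding protein of latent TGF-beta, and Ace (0.0776). For Spock2 they were Ptgr2 (0.0351), Pls3 (0.0383) and Oxnad1 (0.0477). Profiles that vary little are close to many genes, so these values are not compared between members.

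The partners of these proteins were followed in 10 lists with 111 distinct genes tested, of which 2 passed over all genes, both higher in MP. Of all genes tested edgeR called 1.3%, with 0.788% higher in MP. Over all genes tested the log2 fold changes had a median of -0.03, and 46.6% were positive. An unadjusted p under 0.05 was reached by 37 of the 111, and by 20.8% of all genes tested. DESeq2 called 17 of the 111, and of all genes kept by the filter that have its adjusted p it called 7.26%, with 4.01% higher in MP. The list counts that follow stand beside these shares. Among 22 genes of collagens and collagen assembly, the matrix that SPARC binds, 1 was higher and 0 lower, with a list median of 0.43 and 21 positive values. The gene was Hspg2, which encodes perlecan, a basement membrane proteoglycan. It rose from 148 ± 16.3 to 341 ± 77.1 CPM (log2 fold change 1.21 ± 0.18, edgeR adjusted p = 0.0362), and was highest, like Sparc, in MP replicate 1, at 428 CPM. Adjusted p-values ran from 2.4e-07 (DESeq2) to 0.169 over the alternatives, and the call was lost without any one of control replicates 2 and 3 and MP replicates 1, 2 and 3, and with the replicate number as a block.

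Among 10 matrix proteases and inhibitors, the class that testicans are linked to, 1 was higher and 0 lower, with a list median of 0.36. The gene was Mmp15, a membrane-bound matrix metalloproteinase. It had 23.6, 19.8 and 20.1 CPM in control replicates 1, 2 and 3 and 36.9, 49.1 and 47.5 CPM in MP replicates 1, 2 and 3. Like Smoc1 and Smoc2, it was lowest in replicate 1 within MP. The log2 fold change was 1.07 ± 0.15 (edgeR adjusted p = 0.0289, from 2.98e-06 to 0.172 over the alternatives), and the call was lost without control replicate 2 or 3 without MP replicate 2 or 3, and with the block.

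The BMP pathway, on which SMOC1 and FSTL1 act, had no gene past the threshold in edgeR's test. Of 6 ligands, 11 receptors and coreceptors, 10 transducers and target genes and 10 antagonists, 1, 4, 1 and 3 had an unadjusted p under 0.05 in edgeR's test. The share over all genes was 20.8%. Among these genes the receptor Bmpr1b (log2 fold change -0.50) and Smad7 were lower in MP, and the others were higher. DESeq2 called 1, 1, 0 and 2, and its calls were all higher in MP, where the share over all genes was 7.26%. The list medians were 0.19, 0.24, -0.04 and 0.35. Among the antagonists Bmper had a log2 fold change of 0.89 ± 0.19 and Chrd, chordin, 0.71 ± 0.16. Both had higher CPM in every MP library than in any control, Bmper with 5.21 to 6.35 against 2.83 to 3.41 and Chrd with 9.36 to 10.0 against 5.30 to 6.34. Bmp6 and Bmp4 stood at 0.57 ± 0.14 and 0.51 ± 0.23, the coreceptor Rgma and the receptor Bmpr2 at 0.64 ± 0.15 and 0.57 ± 0.20, and the inhibitory Smad7 and the shared transducer Smad4 at -0.63 ± 0.26 and -0.30 ± 0.14. The transducers and target genes, which include Id1, Id2, Id3 and Id4, ran from -0.68 to 0.67 with 5 positive and 5 negative.

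In the remaining lists no gene passed in edgeR's test, and the same shares over all genes, 20.8% and 7.26%, apply to their counts. Of 8 relatives with a follistatin-like segment, 3 had an unadjusted p under 0.05 and DESeq2 called 0. Agrn, agrin, had a log2 fold change of 0.45 ± 0.15 and Fst, follistatin, 0.68 ± 0.23. Of 16 other matricellular proteins, 2 had an unadjusted p under 0.05 and DESeq2 called 0, and Fbln5 and Spp1 stood at 0.74 ± 0.25 and 0.59 ± 0.24. Of 15 growth factors and receptors tied to SPARC, 10 had an unadjusted p under 0.05, and DESeq2 called 4 higher and 1 lower. Of those 10, Fgf2 and Fgfr1 were lower in MP, at -0.62 ± 0.17 and -0.66 ± 0.19, and the others were higher. Tgfbr3 stood at 0.62 ± 0.14 and the platelet-derived growth factor receptor Pdgfra at 0.78 ± 0.20. Of the 3 FSTL1 receptors, 2 had an unadjusted p under 0.05 and DESeq2 called 1 higher, and Tlr4 and Dip2a stood at 0.72 ± 0.18 and 0.55 ± 0.16. Pdgfra is also a progenitor marker and Kdr, in the growth factor list, an endothelial one, so these lists overlap the cell type lists.

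**Figure D5:**
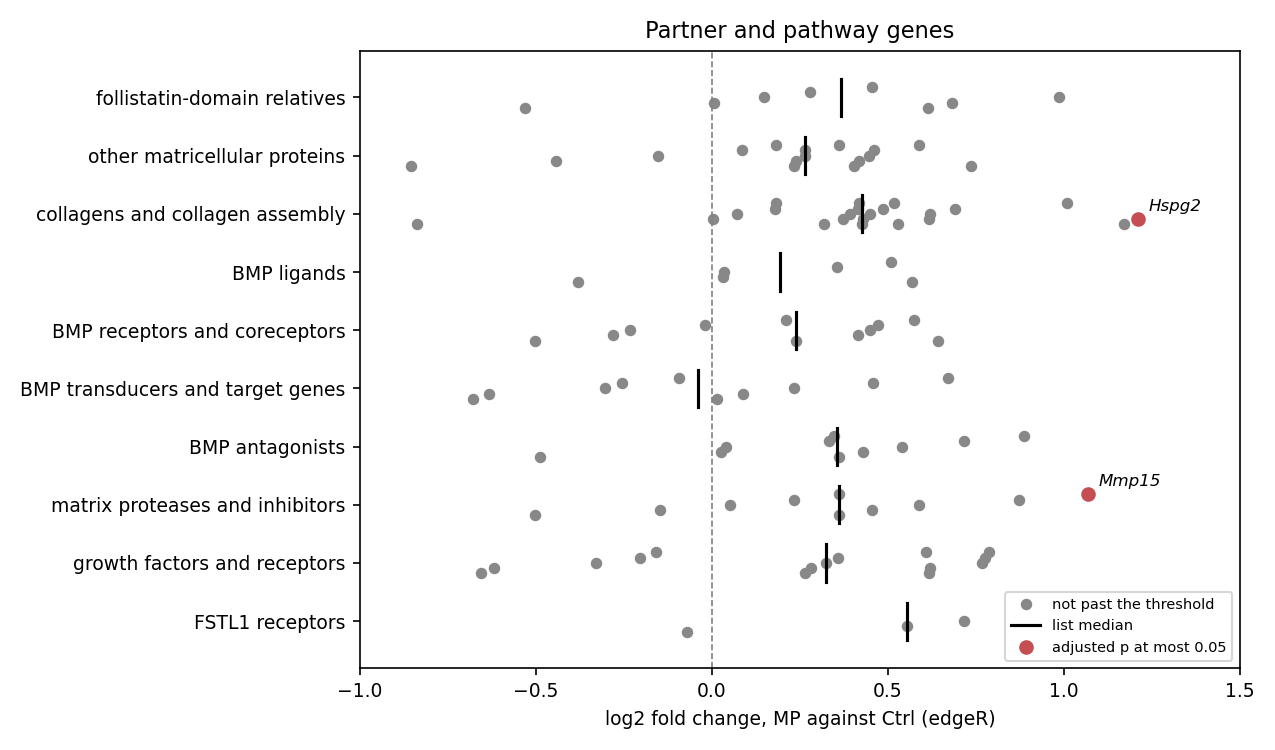
Log2 fold change of MP against Ctrl (x axis) for each tested gene of the 10 partner lists, with list medians as black lines. Red marks the genes past an adjusted p of 0.05, Hspg2 (1.21) and Mmp15 (1.07).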

How the data were processed

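The submitters' processing notes name featureCounts 1.5.0-p3, HISAT2 2.0.5 and the build GRCm38. Strandedness and the annotation used for counting are not stated there. The authors deposited whole-number counts per gene, and per the file headers FPKM per gene, both for 54532 genes. FPKM were used for levels between genes. The test on counts was that of edgeR 4.0.16, run in R 4.3.3 (TMM, filterByExpr, quasi-likelihood test, two-sided, Benjamini-Hochberg adjustment over 14973 genes, threshold 0.05). The SE is the size of the log2 fold change over the square root of F. Errors are SDs over 3 libraries, or SEs after a log2 fold change. Floors at 3 counts reflect counting error alone. The steps were tested on simulated data. The members and gene lists were chosen with earlier results of these data known. Named genes are the members, the transgene's genes, the 3 nearest profiles per member, and per list up to 4 genes past the threshold or else the 2 with the smallest p. No list test was made. Alternatives were DESeq2 1.42.0, other scalings and filters, a replicate block, and leaving out each library. Sequence and exon positions are from GENCODE M21.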

Additional observations from a re-analysis of the deposited data

How the results depend on the processing

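With 3 libraries a group, single libraries moved the counts most. Over all genes 194 passed with all 6 libraries, 124 with no filter, 5 with the replicate number as a block and 997 in DESeq2, and 0 to 1981 without each library in turn (edgeR's 0 came on leaving out control replicate 3, with 2166 genes at an unadjusted p under 0.05, and 1981 on leaving out control replicate 1). Of the 8 members 1 passed, against 0 with the block (edgeR, 4 with an unadjusted p under 0.05), 2 in DESeq2 (Smoc1 and Smoc2) and 0 to 2 without each library. Of the partner genes 2 passed, against 0 with the block (48 with an unadjusted p under 0.05), 17 in DESeq2 and 0 to 19 without each library. The replicate numbers pair nothing that the labels name, and deviations of same-numbered libraries correlated at -0.0243, -0.168 and 0.156 for numbers 1, 2 and 3. Among the members and the named partner and transgene genes and Calcr, as tested under these alternatives, the log2 fold change turned negative for Sparc and Sparcl1 alone, both without MP replicate 1. Without each library in turn it ran from -0.2148 to 0.591 for Sparc and from -0.0255 to 0.4762 for Sparcl1, both highest without MP replicate 2. Scaling by library totals shifted the median over all genes by 0.15 (log2), and 205 of its 259 calls, or 79.2%, were higher in MP in place of 118 of 194, or 60.8%; member values rose with it, Sparc to 0.47 and Smoc1 to 2.91. Levels per length computed from TMM-scaled counts moved by less than 1 SD for all 8 members. Both measures rest on the same counts and gene lengths and nearly coincide, with 105.3 and 105.5 for Sparc in the controls. The comparison is therefore no independent check. Counts of at most 11 in Spock1 and Spock3 limit what can be said of them.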
